A study of Mus musculus with 6 samples.

Results

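Adhesion G protein-coupled receptors are surface receptors with long extracellular regions that carry the same self-cleaving motif, the GPS (G protein-coupled receptor proteolysis site), as polycystin-1. The 10 receptors described were taken by name from a given list (Adgrg6, Adgrg1, Adgrg2, Adgra2, Adgra3, Adgrl1, Adgrl2, Adgrl3, Adgrl4 and Adgre5) and were matched by gene identifier among 49671 genes with counts. The list was chosen with the levels and the Cre over Flp ratios of these libraries in view. These values are therefore a description. Where a fit over all genes counts a receptor as past its threshold, that count is printed beside the share of all genes, and nothing is supported with it.

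RNA was measured in induced renal epithelial cells (iRECs), mouse fibroblasts that forced expression of kidney transcription factors had turned into cells resembling tubule epithelium. The cells came from the strain B6.129S4-Pkd1tm2Ggg/J, whose Pkd1 alleles are floxed. Total RNA was taken from confluent cultures in DMEM with 10% FBS. The Cre group held 3 cultures transduced with Cre recombinase, labelled Pkd1 -/-, and the Flp group held 3 cultures transduced with Flp recombinase, labelled Pkd1 fl/fl and wild type. Each culture belonged to 1 clone, numbered 4, 7 or 21, so that a Cre and a Flp library of the same clone form a pair. Nothing in the labels ties the clones to separate animals, and the spread given is between these clones.

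An adhesion receptor usually cuts itself in the endoplasmic reticulum, inside a large fold called the GAIN domain, of which the GPS is the last part. The outer fragment stays attached to the membrane fragment without a covalent bond. When a ligand or a pull moves it away, the new end of the membrane fragment can act as a tethered agonist for the receptor's own helices and so start G protein signalling. Polycystin-1, whose loss causes most cases of dominantly inherited polycystic kidney disease, has a GAIN domain too and is cleaved at its GPS.

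The GPS codons of the mouse genes are shown first, because this motif is what links the receptors to Pkd1. Each line gives 30 bases of coding sequence, 10 codons, read 5′ to 3′ on the gene's strand from the longest coding transcript in GENCODE M21 on GRCm38. The capitals mark the 3 codons around the cut, for histidine, leucine or phenylalanine, and threonine, with the cut falling just before the threonine.
Adgrg6: tgtctgtgcagcCACTTCACTcactttgga
Adgrg1: tgcctgtgcaacCACCTGACCtactttgca
Adgrg2: tgtacctgtagcCATCTTACAagttttggc
Adgrl1: tgtgcctgcagcCACCTCACCaacttcgca
Adgrl2: tgcgcttgcagcCACCTAACCaattttgct
Adgre5: tgccactgcaacCACCTGACCagctttgcc
Pkd1: tgcctcacccgcCACCTCACTgccttcggt
The cut falls after codon 838 of 1193 in Adgrg6, after codon 382 of 687 in Adgrg1 and after codon 512 of 818 in Adgre5. In Pkd1 it falls after codon 3040 of 4293. The search asked for cysteine, any 3 residues, histidine, leucine or phenylalanine, serine or threonine, any residue, and phenylalanine. This pattern was set after the sequences were seen. It matched 8 of the 10 receptors, each with threonine after the cut, and 31 of 22527 coding genes in all (0.138%). No match was found in the longest coding sequence of Adgra2 or Adgra3, which says only that these letters are not there. Among related genes the pattern was present in 9 of 20 other adhesion receptors and in 3 of 5 genes of the polycystin-1 family. The Pkd1 site shared 20 of 30 bases with Adgrg6, 19 with Adgrl1 and 15 with Adgrg2. The sites of Adgrl1 and Adgrl2 differed at the base level, with 24 bases the same, but encoded the same 10 residues. Adgrg6 alone among the 8 had phenylalanine in place of leucine before the cut.

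Total gene counts per library ran from 25196120 to 46918341, and Cre was the deeper library in 2 clones and the shallower in clone 7. Levels are in CPM, counts scaled to a common library size by TMM (trimmed mean of M values). A gene with 0 reads could have stood at up to 0.0632 to 0.121 CPM, depending on the library, from a floor of 3 counts that covers counting error only. Pkd1, the targeted gene, was at 145 CPM in Cre clone 4, 105 in Cre clone 7 and 118 in Cre clone 21. In the Flp libraries of clones 4, 7 and 21 it was at 199, 229 and 166 CPM, above all Cre libraries. The Cre mean of Pkd1 was 123 ± 20.6 CPM and the Flp mean 198 ± 31.5 CPM (SD, n = 3), and the fitted log2 fold change was -0.69 (SE 0.16). Only part of the gene is floxed, so a count over the whole gene checks the labels in part. All 10 renal tubule markers looked at, among them Krt18, Hnf4a and Cdh16, were at 1 CPM or more in every library. Of 8 endothelial markers, Cdh5, Kdr and Emcn had 0 reads in every library, and 1, Egfl7, was at 1 CPM or more in every library. Of 6 leukocyte markers, Tyrobp had 0 reads in every library, and 1, Cd68, was at 1 CPM or more in every library.

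The cells held a small and uneven set of these receptors. Between genes, levels were compared per length, as RPKM (CPM divided by the length of the merged exons in kilobases). Adgrg1 came first with a mean of 158 RPKM over the 6 libraries (range 108 to 197), and Adgre5 second with 78.3 RPKM (range 47.6 to 119). Adgrg1 was above Adgre5 in each of the 6 libraries, although their ranges overlap. Adgra3 at 13.5 RPKM (range 11.2 to 14.8) and Adgrl1 at 11.2 RPKM (range 9.28 to 13.9) followed, with overlapping ranges and Adgra3 the higher in 5 of 6 libraries. The step from Adgre5 down to this pair, and from the pair down to Adgra2, left no overlap between ranges. Adgra2 had a mean of 2.76 RPKM (range 1.36 to 6.07) and Adgrg6 of 1.40 RPKM (range 0.0859 to 4.59). Their ranges overlap, with Adgra2 the higher in all 6 libraries. Adgrg2 at 0.168 RPKM and Adgrl2 at 0.124 RPKM closed the order of the detected genes and exchanged places when the length of the longest coding transcript was used instead. Adgrl3 and Adgrl4 had 0 reads in all 6 libraries.

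The 10 receptors, which were chosen with these levels in view, made up most of the adhesion receptor signal of these cells. Set beside the 20 other members of the family, 30 genes in all, they held 91.6% to 96.4% of the summed RPKM of a library. Adgrg1 alone held 55.3% on average (range 49.9% to 61.3%) and Adgre5 27.4% (range 19.0% to 35.7%). In the whole family 8 genes were at 1 RPKM or more in every library. They were Adgrg1, Adgre5, Adgra3, Adgrl1 and Adgra2 of the list, together with Celsr2, Adgrb2 and Celsr1.

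**Figure D1:**
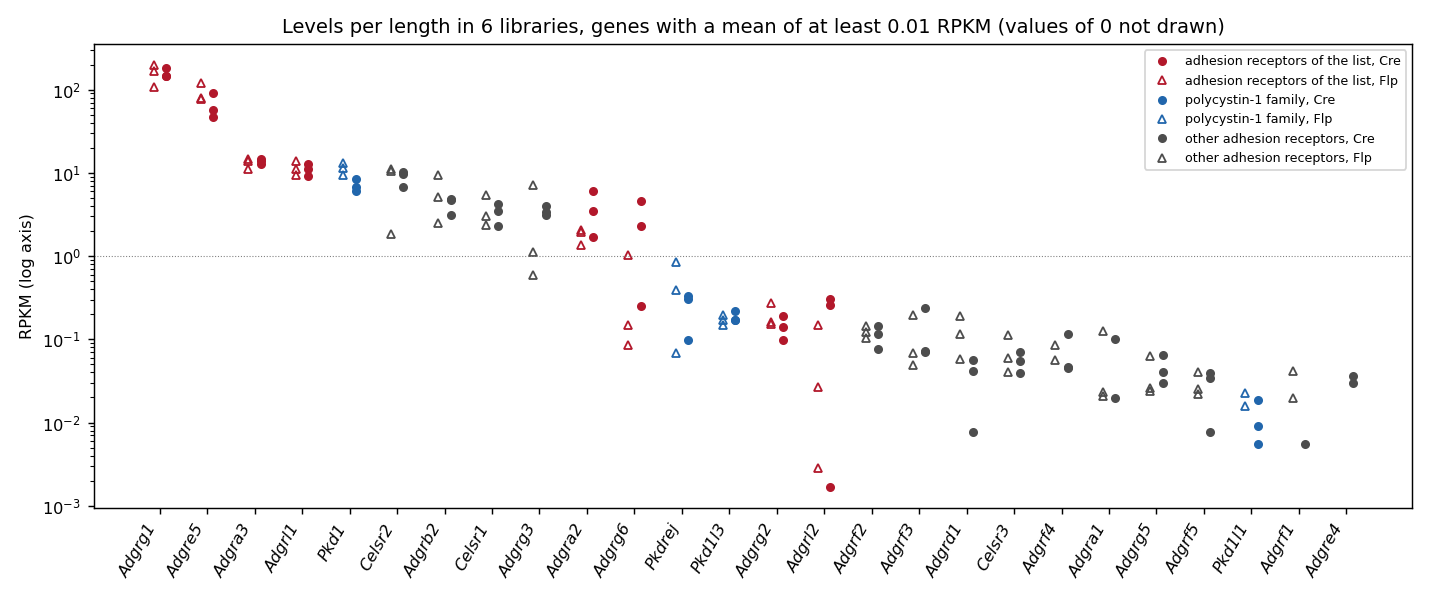
Level per length (RPKM, log axis) of adhesion receptors and polycystin-1 family genes in 6 libraries, ordered by mean; filled circles are Cre libraries, open triangles are Flp libraries, and values of 0 are not drawn. Adgrg1 and Adgre5 stand above all other genes, Adgra3 and Adgrl1 lie near Pkd1 and Celsr2, and Adgrg6 and Adgrl2 show the widest spread among the listed receptors.

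Adgrg6, also known as Gpr126, is a receptor for type IV collagen, laminin and the prion protein that raises cAMP and is needed for Schwann cells to myelinate. The gene lies on chromosome 10 from 14402583 to 14545659 on the minus strand (GRCm38), and 441 bases of its exons overlap Gm46212 on the other strand. It was at 3.05 CPM in Cre clone 4, 56.2 in Cre clone 7 and 27.9 in Cre clone 21. In Flp it was at 1.05 CPM in clone 4, 12.6 in clone 7 and 1.84 in clone 21. Within each clone Cre was the higher, but the clones themselves differed so much that the groups overlap, since Cre clone 4 lay below Flp clone 7. From the lowest to the highest library Adgrg6 spanned 53.5-fold. In RNA from whole cultures, a change in the number of cells with the transcript cannot be told apart from a change in the amount per cell. The Cre library held 2.91 times the Flp level in clone 4, 4.46 times in clone 7 and 15.2 times in clone 21. The raw counts behind these ratios were 129 against 26, 1638 against 507, and 1324 against 49 reads. The mean of the Cre libraries was 29.0 ± 26.6 CPM and that of the Flp libraries 5.16 ± 6.45 CPM (SD, n = 3). The log2 fold change fitted by edgeR with the clone as a block was 2.56 (SE 0.47). It was 1.89 without clone 21 and 2.95 without clone 4.

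Adgra2, known as Gpr124 or Tem5, works with Reck as a coactivator of Wnt7 signals in the blood vessels of the brain. It was at 9.72 CPM in Cre clone 4, 35.1 in Cre clone 7 and 20.1 in Cre clone 21, against 7.84, 11.1 and 11.8 CPM in the Flp libraries of the same clones. The Flp libraries lay close together and the Cre libraries ranged from that level upwards, with Cre clone 4 below 2 of the Flp libraries. The Cre level was 1.24 times the Flp level in clone 4, 3.15 times in clone 7 and 1.70 times in clone 21. Group levels were 21.6 ± 12.7 CPM and 10.3 ± 2.12 CPM (SD, n = 3), with a fitted log2 fold change of 0.92 (SE 0.29) that was 0.54 without clone 7. The endothelial markers, 8 genes, summed to 3.60 to 7.93 CPM in the Cre and 6.04 to 9.98 CPM in the Flp libraries, mostly from Egfl7. Their sum was higher in Cre in clone 7 (6.79 against 6.04 CPM) and lower in clones 4 and 21, and their part in the Adgra2 values was not tested. Adgra2 lies on chromosome 8 from 27085583 to 27123436 on the plus strand, and 73 bases of its exons overlap Brf2.

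Adgra3, the close relative known as Gpr125, was nearly level across the libraries. It stood at 103, 119.9 and 111 CPM in Cre clones 4, 7 and 21 and at 119, 113 and 90.6 CPM in Flp clones 4, 7 and 21. The fitted log2 fold change was 0.06 (SE 0.13), and no library was more than 1.32 times another.

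Adgrg1, or Gpr56, binds type III collagen and tissue transglutaminase, signals to RhoA and is known for its part in the folding of the cerebral cortex. It was at 786, 997 and 799 CPM in Cre clones 4, 7 and 21 and at 909.6, 1069.8 and 584 CPM in Flp clones 4, 7 and 21. Cre was the lower in clones 4 and 7 and the higher in clone 21, by 1.37 times. The group levels of 861 ± 118 and 854 ± 248 CPM (SD, n = 3) differed by far less than either spread, with a fitted log2 fold change of 0.05 (SE 0.16). The gene with the most reads of the family thus had no common direction among the clones. Adgrg1 lies on chromosome 8 from 94974751 to 95014217 on the plus strand and overlaps no other annotated exon.

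Adgrg2, or Gpr64, best known from the epithelium of the male efferent ducts and epididymis, was low, though above the floor of 3 counts in every library. It had 31, 15 and 48 reads in Cre clones 4, 7 and 21 and 21, 32 and 38 reads in Flp clones 4, 7 and 21. After scaling these were 0.733, 0.514 and 1.01 CPM in Cre against 0.848, 0.796 and 1.43 CPM in Flp. Cre was the lower in each clone by a small amount, with log2 ratios of -0.20, -0.58 and -0.47. The groups overlap, and the fitted log2 fold change was -0.44 (SE 0.37).

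Adgre5, or CD97, is a receptor of leukocytes and many epithelia that binds CD55, Thy1 and integrins. It was at 338, 215 and 179 CPM in Cre clones 4, 7 and 21 and at 297, 449 and 289 CPM in Flp clones 4, 7 and 21. The Cre level was 1.14 times that of Flp in clone 4, 0.478 times in clone 7 and 0.618 times in clone 21. Clone 4 therefore went the other way from clones 7 and 21. Group levels were 244 ± 83.5 and 345 ± 89.9 CPM (SD, n = 3). The fitted log2 fold change was -0.53 (SE 0.24), -0.25 without clone 7 and -0.88 without clone 4. The 6 leukocyte markers summed to 4.53 to 6.67 CPM in Cre and 6.26 to 6.91 CPM in Flp, mostly from Cd68, and their part in the Adgre5 values was not tested. Adgre5 lies on chromosome 8 from 83723251 to 83741326 on the minus strand. Of its exon bases 895 overlap Ddx39 on the other strand, whose reads could not be told apart where strand is not given. Its exons also overlap Mir1668 on the same strand.

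The latrophilins Adgrl1, Adgrl2 and Adgrl3 are adhesion receptors of synapses that bind teneurins and Flrt proteins, and Adgrl4 is a receptor of blood vessel endothelium. Adgrl1 was the latrophilin these cells carried in quantity. It stood at 109, 94.6 and 79.7 CPM in Cre clones 4, 7 and 21 and at 95.1, 119 and 81.6 CPM in Flp clones 4, 7 and 21. The ratios had no common direction, and the fitted log2 fold change was -0.06 (SE 0.13). Adgrl1 exons overlap those of Gm10644, Gm44330 and Gm44450 on the other strand, by up to 1107 bases.

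Adgrl2 differed more between clones than between groups. It had 1 read in each library of clone 4, 106 and 85 reads in Cre and Flp of clone 7, and 208 and 10 reads in Cre and Flp of clone 21. In CPM these were 3.63 and 2.113 in clone 7 and 4.38 and 0.375 in clone 21, and both libraries of clone 4 lay under the floor of 3 counts. No ratio is given for clone 4. In clone 7 the log2 ratio was 0.77 and in clone 21 it was 3.36. The fitted log2 fold change of 1.82 (SE 0.77) became 0.55 without clone 21. Adgrl3 and Adgrl4 had no reads in any library. Of the 8 endothelial markers 3 had none either, while Egfl7 was at 3.03 CPM or more in every library.

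**Figure D2:**
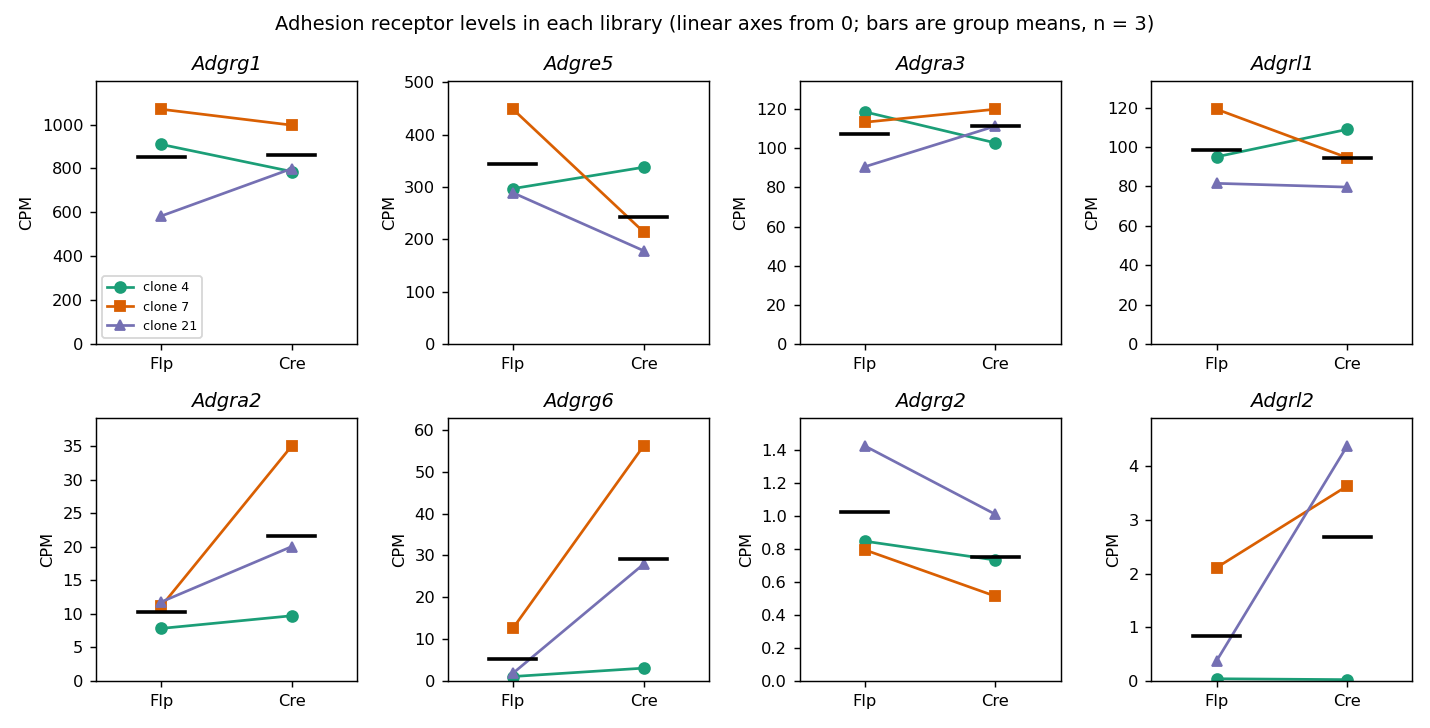
CPM of the 8 detected receptors in each library, Flp on the left and Cre on the right of each panel, with a line joining the libraries of a clone and a black bar at the group mean (n = 3). Cre is above Flp in all 3 clones for Adgrg6 and Adgra2 and below it for Adgrg2, and the clones of Adgrg1, Adgre5, Adgra3 and Adgrl1 differ in direction.

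The receptors had no common direction between Cre and Flp. Of the 7 with a ratio in every clone, Adgrg6 and Adgra2 were higher in Cre in all 3 clones, Adgrg2 was lower in all 3, and 4 were mixed. Over all 15355 genes tested, 14.6% were higher in Cre in every clone and 13.1% lower. Over clones 7 and 21 alone, where Adgrl2 also has a ratio, 4 of 8 were higher (Adgrg6, Adgra2, Adgra3 and Adgrl2) and 3 lower (Adgrg2, Adgrl1 and Adgre5), while 29.8% of all genes were higher and 28.9% lower in both. Over clones 4 and 7 alone there were 2 higher and 2 lower, beside 22.1% and 21.5% of all genes. For none of the 8 tested did all Cre libraries lie above all Flp libraries or all below, which was so for 4.19% and 3.95% of all genes. The quasi-likelihood test of edgeR, with Benjamini-Hochberg adjustment over all genes, called none of the 8 at an adjusted p under 0.05. Its background was 0% of genes called, with 1047 of 15355 at an unadjusted p under 0.05. Without a filter on low counts edgeR called Adgrg6 among the 8, at a background of 0.792% of 28286 genes. DESeq2 with the same clone block called Adgrg6 alone among them, at a background of 1.36% of genes. The authors' deposited table also has Adgrg6 as the one listed receptor past an adjusted p of 0.05, at a background of 1.37%. As the receptors were chosen from this comparison, nothing is read from these counts. The median log2 fold change over the 8 was 0.05, beside 0.00 over all genes.

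**Figure D3:**
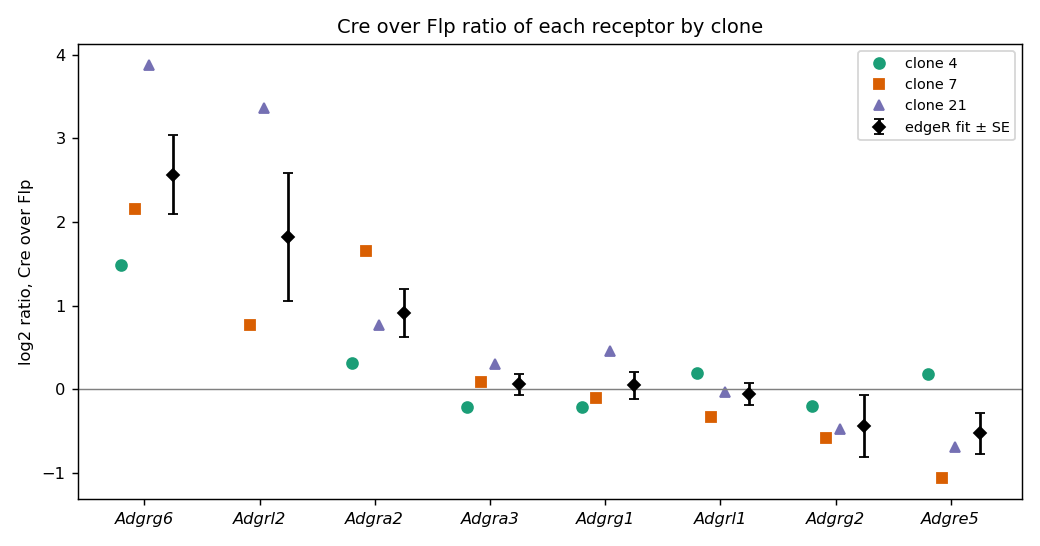
Log2 ratio of Cre over Flp in each clone (coloured points, prior count of 2) and the fitted log2 fold change with its standard error (black diamonds) for the 8 detected receptors. Adgrg6, Adgrl2 and Adgra2 lie furthest above 0 with clones far apart, and 5 receptors lie near or below 0; Adgrl2 has no point for clone 4.

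Among genes within 10 Mb of each of the 8 tested receptors that had a mean of at least 5 CPM, 32 to 91 per receptor, the median log2 ratio of a clone ran from -0.10 to 0.16. Around Adgrg6 the medians of 53 neighbours were -0.04, 0.01 and 0.10 in clones 4, 7 and 21, beside ratios of 1.49, 2.15 and 3.88 for Adgrg6 itself. Around the other receptors too, the neighbours' medians lay near 0.

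The library pattern of Adgrg6 was compared with that of 10245 other genes over the 6 libraries, by the root mean square difference of log2 CPM centred on each gene's mean. This likeness is a description over 6 libraries that share clones and depth. The nearest were Sh3gl2, which encodes an endophilin of endocytosis, at 0.62, Mt2, a metallothionein, at 0.82, and Sema3c, a secreted semaphorin, at 0.96, against a median of 2.08 over all genes compared. Sh3gl2 was at 1.47, 16.0 and 10.2 CPM in Cre clones 4, 7 and 21 and at 0.808, 2.93 and 1.20 CPM in Flp. Mt2 was at 43.1, 194 and 158 CPM in Cre and at 11.2, 43.9 and 22.6 CPM in Flp. Its mean in the authors' deposited table is 10550.6 against 2671.6 normalised counts computed here, so its level is uncertain. In Sh3gl2 and Mt2, as in Adgrg6, clone 4 was the lowest of each group and Cre was the higher within each clone. Both genes were picked for their likeness to Adgrg6, so nothing is read from this shared pattern. The gene most like Adgrl2 was Adgrg6, at 1.05 against a median of 2.38, followed by Armcx2 at 1.11 and Cpt1c at 1.22. This ranking for Adgrl2 includes both libraries of clone 4, which had 1 read each, so that it rests in part on levels under the floor. For Adgra2 the nearest were Diaph3, a formin, at 0.14, Cltrn at 0.19 and Pdlim2 at 0.22.

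The promoters of Adgrg6 and Adgrl2 are shown because their levels spanned the widest range over the libraries. Each line gives 250 bases before to 50 after a RefSeq start on GRCm38.p6, minus strand, written 5′ to 3′. The capitals mark TGACG and GGGCGG, the core of a cAMP response element and a GC box, read on either strand with no overlap between them. Adgrg6 is at chr10:14544987-14545286 and Adgrl2 at chr3:148954586-148954885, inside the longer gene that GENCODE gives.
Adgrg6: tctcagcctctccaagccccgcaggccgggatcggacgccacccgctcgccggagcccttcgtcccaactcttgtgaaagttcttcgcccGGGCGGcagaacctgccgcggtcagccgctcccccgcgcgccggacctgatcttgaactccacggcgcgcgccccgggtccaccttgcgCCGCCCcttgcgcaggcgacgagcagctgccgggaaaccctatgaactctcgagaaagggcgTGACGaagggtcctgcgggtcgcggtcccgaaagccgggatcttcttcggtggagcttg
Adgrl2: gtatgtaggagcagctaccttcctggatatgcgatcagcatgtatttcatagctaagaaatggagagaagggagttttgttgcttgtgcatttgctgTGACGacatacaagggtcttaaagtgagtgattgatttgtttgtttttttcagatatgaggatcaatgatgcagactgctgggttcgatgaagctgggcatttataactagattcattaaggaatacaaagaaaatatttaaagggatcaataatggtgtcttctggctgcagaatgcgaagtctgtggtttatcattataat
The Adgrg6 window had 69.0% GC and 38 CpG sites, with 1 TGACG and 2 GGGCGG. The Adgrl2 window had 38.0% GC, 4 CpG sites, 1 TGACG and 0 GGGCGG. Over 32851 RefSeq promoters of that length the median was 52.7% GC and 7 CpG, and 20.8% held TGACG and 35.7% GGGCGG. The 2 windows lay on opposite sides of the median in base composition. On the minus strand GENCODE starts Adgrg6 at 14545659, near its window, and Adgrl2 at 148990555, far upstream of its window. The Adgrl2 window may thus belong to an internal start, so the 2 windows may not be alike in kind. Of the 10 receptors 8 were found in the promoter table, with 11 entries between them. TGACG was present in at least 1 entry of 4 of these 8. Among the 4 were Adgrl4, which had no reads, and Adgrg1, in 1 of its entries. This count is per gene over all its entries, whereas the 20.8% is per promoter.

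Known partners of the receptors were then taken from lists of ligands, co-receptors, G protein subunits and effectors, 58 genes of which 43 could be tested. The edgeR test called 0 of the 43, as it called 0 of all genes, with 2 of the 43 at an unadjusted p under 0.05, and DESeq2 called 0 of these partners. Their median log2 fold change was -0.07, beside 0.00 over all genes. In all 3 clones 4 of the 43 were higher and 7 lower in Cre, and 32 were mixed, beside the 14.6% higher and 13.1% lower over all genes. The related families were 20 other adhesion receptors, 8 of them tested, and 5 genes of the polycystin-1 family, 3 of them tested. There edgeR called 0, and DESeq2 called Pkd1 itself, the targeted gene, lower in Cre (adjusted p = 0.0350, against an edgeR adjusted p of 0.6065).

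Of the ligands of Adgrg6, 8 of 10 were tested and 0 passed. Col4a1, a chain of type IV collagen, was the most abundant per length, at 3605, 3814 and 3336 CPM in Cre clones 4, 7 and 21 and at 3633, 4164 and 3363 CPM in Flp, with a log2 fold change of -0.05. Its libraries lay close together and the groups overlap. Prnp, the prion protein gene, had log2 ratios of -0.08, -1.20 and 0.89 in clones 4, 7 and 21, with no common direction. Col4a5 had the smallest p of the list, with a log2 fold change of 0.33 (SE 0.19) and an edgeR adjusted p of 0.8524.

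Of the ligands of Adgrg1, Tgm2, the tissue transglutaminase, was at 296, 178 and 159.6 CPM in Cre clones 4, 7 and 21 and at 365, 226 and 300.1 CPM in Flp. It was the lower in Cre within each clone while the groups overlap, with a log2 fold change of -0.52 (SE 0.15) and an edgeR adjusted p of 0.6349. Col3a1, the collagen that Adgrg1 binds, was under 1 CPM in every library. Of the ligands of Adgre5, Itgav was the most abundant, Cd55 averaged 4.81 ± 0.295 CPM over the Cre and 3.36 ± 2.15 CPM over the Flp libraries (SD, n = 3), and Thy1 had no reads. Itga5 had the smallest p of that list, with a log2 fold change of -0.33 (SE 0.15) and an edgeR adjusted p of 0.7803.

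Of the ligands of latrophilins, 2 of 7 could be tested, Flrt1 and Flrt3, and 3 of the 4 teneurins had no reads. Flrt1 was at 7.83, 10.7 and 3.86 CPM in Cre clones 4, 7 and 21 and at 13.9, 13.3 and 4.50 CPM in Flp, with a log2 fold change of -0.46 (edgeR adjusted p = 0.8042). All 6 genes of the Adgra2 complex list were tested and 0 passed. Reck, the membrane protein that pairs with Adgra2, averaged 47.5 ± 11.8 CPM over the Cre and 61.2 ± 14.1 CPM over the Flp libraries (SD, n = 3). Its log2 fold change was -0.37 with an edgeR adjusted p of 0.8832. Lrp5, a Wnt co-receptor, was the most abundant of that list, at 229 ± 18.4 and 227 ± 44.9 CPM.

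Downstream, 9 of 13 G protein alpha subunits were tested and 0 passed. Gnai2, an inhibitory subunit, was the most abundant per length, with means of 362 ± 45.3 CPM over the Cre and 403 ± 39.2 CPM over the Flp libraries (SD, n = 3). Gnas, the stimulatory subunit through which Adgrg6 raises cAMP, had a log2 fold change of -0.41 with ratios of -1.24, 0.38 and -0.39 in clones 4, 7 and 21 (edgeR adjusted p = 0.8894). Its locus overlaps other genes, and its mean in the authors' deposited table is 30846 against 1864 normalised counts computed here, so its level is uncertain. Among 13 tested effectors, 4 were higher and 3 lower in Cre in every clone, where 14.6% and 13.1% of all genes were, and 0 passed. Adcy3, an adenylyl cyclase of cilia, had the smallest p. It was at 20.1, 9.50 and 8.49 CPM in Cre clones 4, 7 and 21 and at 35.5, 29.8 and 10.1 CPM in Flp, lower in each clone, with a log2 fold change of -0.90 (SE 0.29) and an edgeR adjusted p of 0.6455. Adcy6, the most abundant cyclase, was at 244 ± 16.9 and 226 ± 31.6 CPM.

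**Figure D4:**
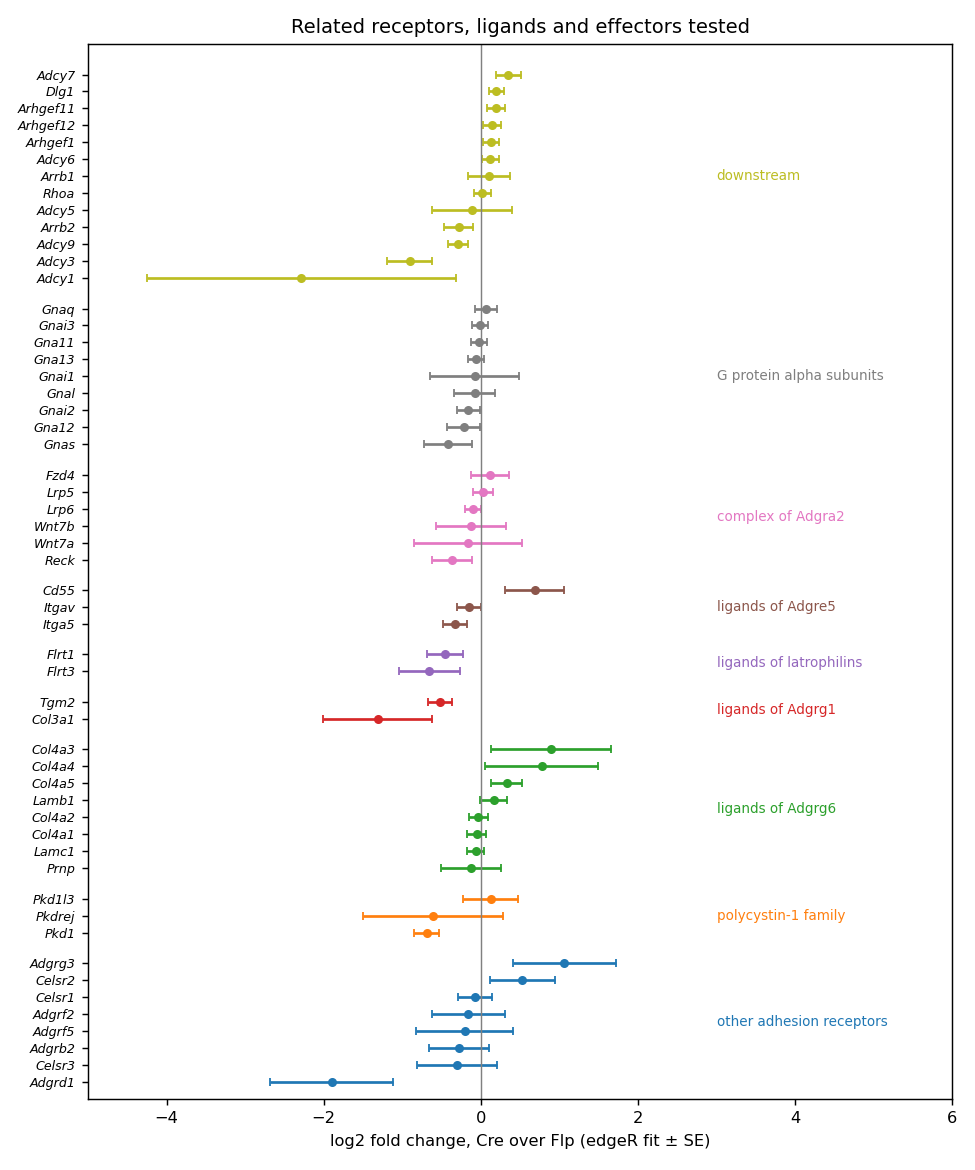
Fitted log2 fold change of Cre over Flp with its standard error for the 54 tested genes of the related families and partner lists, grouped by list. Most lie within 1 log2 unit of 0, and 0 passed the edgeR test.

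Of the 20 other adhesion receptors, 8 were tested and 0 passed. Celsr2, a cadherin-type receptor of planar polarity, was at 112, 119 and 77.6 CPM in Cre clones 4, 7 and 21 and at 127, 121 and 21.1 CPM in Flp, so that Flp clone 21 stood apart from the rest. Adgrg3, the neighbour of Adgrg1 on chromosome 8, was at 21.7, 27.7 and 23.6 CPM in Cre and at 7.71, 49.8 and 4.09 CPM in Flp, with the Cre libraries inside the range of the Flp libraries. Adgrd1 had the smallest p, with a log2 fold change of -1.90 (SE 0.78) and an edgeR adjusted p of 0.7327, at 1.59 CPM or less in every library.

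The counts and the authors' deposited table differ in the names of a pair of receptors. For Adgra2 the mean in the authors' deposited table is 3699.6 normalised counts, beside a log2 fold change of 0.05. In the count files the gene of that name (ENSMUSG00000031486) averaged 539.8, and its log2 fold change was 0.92. For Adgra3 the mean in the authors' deposited table is 526, beside a log2 fold change of 0.65. In the count files Adgra3 (ENSMUSG00000029090) averaged 3709, and its log2 fold change was 0.06. By name the table's mean was 6.85 times the count mean for Adgra2 and 0.142 times for Adgra3, whereas with the names exchanged the ratios were 0.997 and 0.974. GENCODE and RefSeq both place Adgra2 (synonyms Gpr124 and Tem5) on chromosome 8 and Adgra3 (synonym Gpr125) on chromosome 5, and the values given here follow them. The cause was not tested. The other 6 detected receptors had means within 1.5-fold in both sources, as had 90.7% of 12924 genes matched by name, while 1.65% differed by over 5-fold. Among these 6 the gap was widest for Adgre5, at 14271 in the authors' deposited table against 9984 computed here, a ratio of 1.43. For Adgrl1 the ratio was 1.28. For 5 of the other 6 the authors' deposited table gives log2 fold changes smaller in size than those computed here. They were 1.29 against 2.56 for Adgrg6, 0.38 against 1.82 for Adgrl2 and -0.12 against -0.44 for Adgrg2. For Adgre5 they were -0.37 against -0.53, and for Adgrg1 0.035 against 0.047. For Adgrl1 the value of that table was the larger in size, at -0.065 against -0.057.

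**Figure D5:**
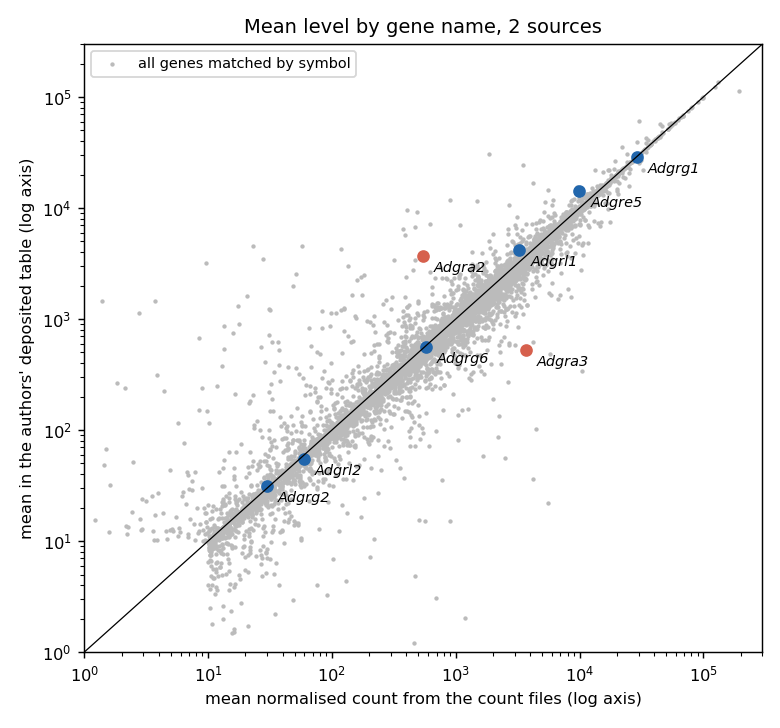
Mean normalised count of each gene in the count files (x axis, log scale) against the mean under the same name in the authors' deposited table (y axis, log scale), with the line of equality. The 6 blue receptors lie near the line, and Adgra2 (3699.6 against 539.8) and Adgra3 (526 against 3709), in red, lie on opposite sides of it.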

How the data were processed

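RNA-seq of 3 Cre and 3 Flp cultures was analysed. For each library the authors deposited raw read counts of 49671 Ensembl genes, not normalized. A table that the authors deposited beside them holds means of normalized counts as a signal, log2 fold changes with standard errors, a test score, and p-values with adjusted values. The submitters' processing notes name STAR 2.5.2b-2 and featureCounts 1.6.0.3 for alignment and counting, after Trim Galore 0.4.3.0 and FastQC 0.67, with DESeq2 2.11.40.1 for the table and mm10/GRCm38 as the build. Strand setting and annotation release were not given in these notes or the labels. Reads of overlapping genes therefore cannot be told apart.

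Gene names, positions and exon lengths came from GENCODE M21, which held 49326 of the identifiers. Counts were fitted over all genes in R 4.3.3 with edgeR 4.0.16 (filterByExpr, TMM, clone block, quasi-likelihood test, Benjamini-Hochberg, threshold 0.05), beside DESeq2 1.42.0 and limma-voom 3.58.1. Ratios per clone used a prior count of 2. Both edgeR and DESeq2 were tested on simulated data before use. Tables and plots were made with Python 3.11.15, pandas 2.3.3 and matplotlib 3.10.9. GPS codons were read from GENCODE transcripts and promoters from RefSeq. The sign of the authors' fold changes matched that of Cre over Flp computed here for 95.6% of 12823 genes.

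The receptors and the partner lists were chosen with earlier results of these data known. All 10 receptors are described. By rule, other genes named are the one most abundant per length and the one with the smallest p of each list, and the 3 genes most like a receptor. Further partners, such as Prnp, Col3a1, Cd55, Thy1, Flrt3 and Adgrg3, were picked after their values were seen.

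Clone was used as a block because the design compares the Cre and Flp cultures of one clone. To check the pairing, deviations from the mean of a group were correlated, giving 0.22, 0.12 and 0.29 for the pairs of clones 4, 7 and 21 and -0.30 to 0.03 for other pairs. Over all genes, however, Flp clone 7 was closer to Cre clone 4 (correlation 0.989) than to Cre clone 7 (0.980). Flp clone 21 was likewise closer to Cre clone 4 (0.9868) than to Cre clone 21 (0.9838). Cre clone 4 was about as close to Flp clone 7 (0.9893) as to Flp clone 4 (0.9892). These correlations leave the pairing unclear, most of all for clone 7. All pairs of libraries differed beyond sampling noise.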

Additional observations from a re-analysis of the deposited data

How the results depend on the processing

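The count of genes past the threshold depended on the test and the filter. It was 0 with edgeR, and 199 with DESeq2 and 224 with edgeR without a filter on low counts. The count over the partner lists and related families went from 0 to 1 and 1 in the same settings. Of these lists 54 genes were tested in the filtered edgeR fit, and the fit without a filter kept every gene with reads. Pkd1, the targeted gene, was the gene called with DESeq2 and with edgeR without a filter. Adgrg6 was past the threshold in both of these settings too. Both counts stayed at 0 with other size factors, with limma-voom (1116 genes and 4 partner genes at an unadjusted p under 0.05) and when each clone was left out. Without the clone block 0 genes passed, and the log2 fold change of Adgrg6 was 2.46. When a clone was left out, the count of receptors higher in Cre in every remaining clone ranged from 2 to 4 and the count lower ranged from 1 to 3. The fold change of Adgrg6 ranged from 1.89 to 2.95, that of Adgra2 from 0.54 to 1.21, that of Adgrl2 from 0.55 to 3.05 and that of Adgre5 from -0.88 to -0.25 over 8 alternatives, each with its sign in all 8. The signs of Adgrg1, Adgra3 and Adgrl1 each changed under 1 alternative, the leaving out of clone 21, 21 and 7, at -0.16, -0.07 and 0.08. The cause was not tested. At least 1 CPM in every library was reached by 6 receptors, at least 0.5 CPM by 7 and at least 2 CPM by 5. Low counts limit Adgrg2 and Adgrl2, and the 3 clones limit all group comparisons.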
